A study of Mus musculus with 16 samples.

Results

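The regions described here are the 1418 distal accessible regions of C2C12 iMyoD1 myoblasts that hold both CAGCTG and an AP-1 heptamer within 100 bp of the summit. They were chosen by sequence and distance to genes, and not by how accessibility changed. The regions themselves came from the same peak lists on which presence and strength were scored. Each summit was that of the region's strongest peak in any library, so the motif classes are not independent of strength. Of the 26213 union regions built from the peak lists, 15878 were distal, with a summit more than 1 kb from any annotated transcription start site. The double-motif regions made up 8.93% of the distal regions, beside 2206 with the E-box and no AP-1 heptamer, 5372 with AP-1 and no E-box, and 6882 with neither. Among the 10335 regions within 1 kb of a start site, 179 (1.73%) held both motifs.

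MyoD1 is a basic helix-loop-helix factor that directs cells into the skeletal muscle lineage and binds DNA at E-boxes, of which CAGCTG is a preferred form. AP-1 is a dimer of Fos and Jun family proteins that binds the consensus heptamer TGASTCA, where S is C or G. Its members respond to serum and growth signals in proliferating cells. Both kinds of site are common in distal regulatory elements of myoblasts.

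Accessibility was profiled by ATAC-seq, in which a transposase inserts adapters into open DNA, and each library had its own peak list. All cells were C2C12 iMyoD1, a polyclonal mouse myoblast population with intact endogenous Myod1 and an integrated transgene for Halo-tagged MyoD1 under a doxycycline (dox) inducible promoter, which dox switches on in a fraction of nuclei. Of the 4 groups, GM no dox and GM +dox were kept proliferating in serum-rich growth medium from 75000 cells per well. DM no dox and DM +dox were seeded at 300000 cells per well and kept for 24 h after serum withdrawal, and dox or vehicle was given over the same 24 h in both media. Each group had 4 biological replicates, and replicate 1 of both DM groups was set aside as the study's quality control did, so 14 libraries (4, 4, 3 and 3) were compared. Values are given in this order of groups and, within a group, in order of replicate number. Medium and seeding density changed together and cannot be told apart. Nor can a change in the share of cells with an open region be told apart from a change within each cell in such bulk libraries.

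Background coverage recovered from the lists, in fragments per base, was 0.339 to 0.992 in GM no dox, 0.377 to 0.866 in GM +dox, 0.511 to 0.901 in DM no dox and 0.732 to 1.13 in DM +dox. The lists held up to 58587 peaks, and those of DM +dox (46241 to 51340) were all longer than those of DM no dox (23690 to 40599). Because of this, presence was scored on equal lists: a region had a strong peak in a library when it overlapped one of that library's strongest peaks by −log10 p, taking from each library as many peaks as the shortest kept list holds. An equal list is a fixed budget, so a class that takes a larger share of it leaves less for the others. The label was checked by peaks within 1 kb of marker start sites. Myod1 and Chrna1, a muscle acetylcholine receptor subunit, had a strong peak in 14 of 14 libraries. Des, Cdh15, Pax7 and Myf5 had a peak of any strength in 13, 10, 9 and 6 libraries, Gfap (glia) in 10 and Pecam1 (endothelium) in 8. Ptprc, Epcam, Alb and Cd3e, which mark blood, epithelium, liver and T cells, had none.

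The arrangement of the motifs was examined first. The closest E-box and AP-1 matches overlapped in 119 of the 1418 regions (8.39%), and elsewhere lay up to 185 bp apart, with a median of 38 bp over all members (quartiles 11 and 72.8 bp). Overlap is possible in a single arrangement, in which the last 2 bases of one match are the first 2 of the other. This gives TGASTCA followed at once by GCTG, or its reverse complement. It occurred in 119 of 15878 distal regions (0.749%) and in 132 of all 26213 union regions (0.504%). No other exact spacing was as common. The next was 4 bp between the matches, in 35 regions, followed by 7 bp in 26. An overlapping pair needs 2 fewer fixed bases than any other pair, so it is more likely by sequence alone. Its count is therefore not directly comparable with those of other spacings, and a preference for overlap was not tested. The 6 overlapping regions with the highest mean strength over the 14 libraries are shown because they display the shared bases, with both matches in capitals and named by the nearest annotated gene. Positions here and throughout are on mm10, with gene models from GENCODE M21.
Cacna1a (chr8:84501840-84501866, + strand): ctctttagTGACTCAGCTGtgattcac
Rxra (chr2:27786036-27786062, + strand): gatgtctcTGACTCAGCTGggggaagg
Gm11656 (chr11:108365429-108365455, + strand): cagcttacTGAGTCAGCTGctggaagg
Gm12015 (chr11:17386843-17386869, + strand): gactgagcCAGCTGACTCActcaaagc
4930486F22Rik (chr10:86100437-86100463, + strand): gtggatcaCAGCTGACTCAcagggcag
Gm19198 (chr14:63020936-63020962, + strand): gctcaccaCAGCTGACTCActagatcg
All of these had a strong peak in 14 of 14 libraries. Cacna1a encodes a neuronal voltage-gated calcium channel subunit, and this region lay in its intron, 45.2 kb from the nearest start site. Its fold enrichment over local background was 7.25, 20.2, 11.3 and 16.5 in GM no dox, 19.4, 20.3, 15.6 and 15.1 in GM +dox, 14.4, 12.9 and 15.8 in DM no dox, and 20.03, 18.9 and 16.1 in DM +dox. The groups overlapped, and the region was among the strongest of every library, with mean strength percentiles of 99.1, 99.4, 99.6 and 99.4 among all union regions. The region near Rxra, the gene of a nuclear receptor for retinoids, lay between genes 45.8 kb from the start site. Its fold enrichment was 9.01, 19.8, 14.8 and 21.2 in GM no dox, 20.1, 20.6, 18.1 and 18.3 in GM +dox, 14.1, 15.02 and 17.6 in DM no dox, and 21.4, 19.2 and 18.5 in DM +dox. Its mean percentiles were 98.2, 98.4, 97.1 and 95.5, with all DM +dox libraries below those of DM no dox. The weakest of the 6, near Gm19198, had mean percentiles of 97.1, 95.1, 96.7 and 90.7.

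**Figure D1:**
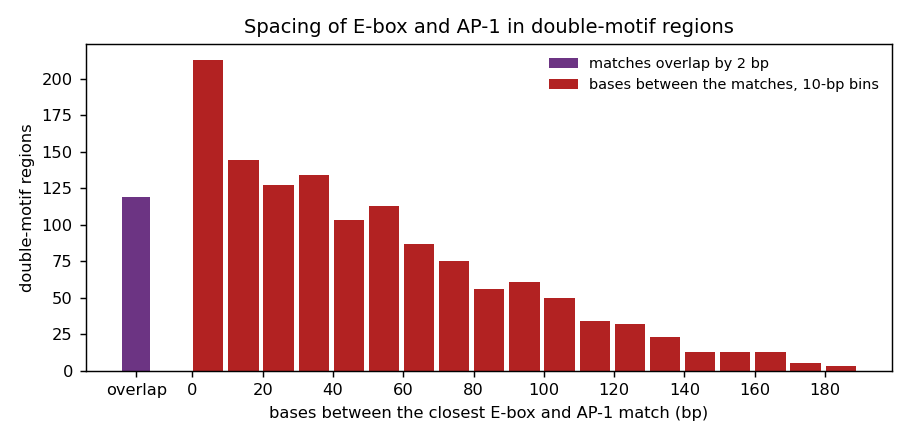
Number of double-motif regions (y axis) by the number of bases between the closest E-box and AP-1 match (x axis, bp, bins of 10 bp), with overlapping matches as a separate bar. The 119 overlapping pairs all share 2 bp, and the first bin after them, 0 to 9 bp, holds 213 regions.

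Most members held the minimum of motifs. A single E-box with a single AP-1 heptamer was found in 1086 regions (76.6%), while 170 (12.0%) had 2 or more E-boxes, 184 (13.0%) had 2 or more AP-1 heptamers and 22 had both repeated. The most of either motif in one region was 3. Both motifs were spread over the window. The nearest E-box lay a median of 40.5 bp from the summit and the nearest AP-1 heptamer 34 bp, and AP-1 was the nearer of the pair in 772 regions (54.4%). The same distances were 40.5 bp in E-box-only and 32 bp in AP-1-only regions. The summit itself fell on or between the closest pair in 697 regions (49.2%). The centre of the AP-1 heptamer on the reference strand was C in 711 regions and G in 707.

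AP-1 was present in 39.1% of the 3624 distal regions with CAGCTG and in 43.8% of the 12254 without it. In the window around promoter summits, CAGCTG was present in 12.5% of regions and AP-1 in 8.41%, against 22.8% and 42.8% of distal regions. Double-motif regions had a median GC content of 51.2%, between the 53.2% of E-box-only and the 49.3% of AP-1-only regions. By location, 751 (53.0%) lay in introns, 60 (4.23%) in exons and 607 (42.8%) between genes, against 54.0%, 4.44% and 41.5% of all distal regions. At the rule's edge of 1 kb, the 11 members whose summit lay within 100 bp beyond it had a strong peak in a median of 11 libraries, and the 8 promoter regions with both motifs within 100 bp before it in a median of 10. With both motifs required within 50 bp of the summit 591 members were left, and within 200 bp there would be 2455. The median distance to the nearest start site was 11.8 kb (11.3 kb for all distal regions), and 148 (10.4%) lay beyond 50 kb. The members were scattered over 1316 nearest genes, of which 1222 had 1 member and none more than 3.

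Other sequence words were counted in the same window on both strands. CATTCC, the core recognised by TEAD factors (the DNA partners of YAP), was present in 273 double-motif regions (19.3%) against 21.9% of all distal and 9.38% of promoter regions. TGTGGT, the core bound by RUNX factors, was present in 372 (26.2%) against 32.0% of distal regions. A second E-box form, CAGGTG, was present in 129 (9.10%) against 8.72% of distal regions, and CACGTG in 47 (3.31%) against 3.41%. The CRE word TGACGTCA was found in 4 members (0.282%, against 0.624% of distal regions) and the MEF2 consensus in 6 (0.423%, against 0.642%). CCCTC, a short part of the CTCF motif, was present in 628 (44.3%, against 43.7%). A CAGGTG or CACGTG match cannot share bases with a CAGCTG match but can share 2 with an AP-1 heptamer. TGACGTCA cannot share bases with the heptamer but can share 2 with CAGCTG, as can TGTGGT, and CATTCC can share 2 with the heptamer and 1 with CAGCTG. These matches are descriptions of sequence and not of binding.

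Double-motif regions were shared by more libraries than other distal regions. A strong peak was present in a median of 7 of the 14 libraries, against 5 for E-box-only, 6 for AP-1-only and 5 for regions with neither. In all 14 libraries, 285 members (20.1%) had a strong peak, against 14.6% of E-box-only, 17.1% of AP-1-only and 12.9% of regions with neither. At the other end, 227 members (16.0%) had a strong peak in a single library, against 21.8% of all distal regions. These are descriptions over regions, with no test. By spacing, overlapping pairs had the largest share present in every library, 30.3% of the 119 against 16.5% to 21.7% of the 4 wider bins described further on. Their median of 8 libraries was the same as that of pairs 0 to 19 bp apart. The 5 strongest members by mean percentile lay near Gm49089, Cacna1a, Gm19111, Camk2d and Zfp869, with mean strength percentiles of 98.9 to 99.5. Camk2d encodes a calcium and calmodulin dependent kinase, and Zfp869 a zinc finger protein. The sequences of those with a pair of matches in at most 100 bases follow.
Gm49089 (chr15:33907188-33907266, + strand): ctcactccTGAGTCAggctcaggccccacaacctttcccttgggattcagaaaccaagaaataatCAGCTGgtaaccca
Camk2d (chr3:126831594-126831642, + strand): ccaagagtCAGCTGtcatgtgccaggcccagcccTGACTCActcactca
Zfp869 (chr8:69716991-69717025, + strand): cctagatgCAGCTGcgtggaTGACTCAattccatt
The fold enrichment of the region near Gm49089, which lay between genes and held 2 of each motif, was 12.1, 20.2, 12.5 and 17.9 in GM no dox, 19.5, 19.9, 17.6 and 17.9 in GM +dox, 14.5, 20.1 and 20.3 in DM no dox, and 21.2, 25.05 and 22.5 in DM +dox. That of the intronic Camk2d region was 12.5, 16.1, 12.6 and 14.1 in GM no dox, 15.3, 21.01, 15.6 and 15.1 in GM +dox, 15.004, 14.4 and 15.2 in DM no dox, and 22.8, 18.3 and 18.7 in DM +dox. The group means of the percentile differed by less than 1 point in both, at the top of the scale, where a rank has little room to rise. In fold enrichment, all DM +dox libraries lay above all DM no dox libraries in both regions, and the GM groups overlapped.

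The question put to the groups was whether raised MyoD1 and differentiation changed how many of these regions had a strong peak. From here on, percentages of regions with a peak count strong peaks, unless every deposited peak is used. A region without a strong peak is not thereby closed, since it can hold a weaker deposited peak. For single named regions, no peak means no deposited peak. The percent of double-motif regions with a peak was 50.6, 52.7, 48.1 and 48.5 in GM no dox (mean 49.96% ± 2.11 SD, n = 4) and 61.8, 56.3, 51.3 and 48.0 in GM +dox (54.4% ± 6.04 SD, n = 4). In DM it was 55.1, 57.5 and 52.6 without dox (55.1% ± 2.43 SD, n = 3) and 61.4, 57.5 and 53.1 with dox (57.4% ± 4.16 SD, n = 3). The groups overlapped in each of the 4 comparisons made, GM no dox and DM no dox only just. With dox the mean was 4.39 percentage points higher in GM (exact permutation test, two-sided, p = 0.257, adjusted p = 0.343 over 12 tests) and 2.30 higher in DM (exact permutation p = 0.4, adjusted p = 0.451). In DM it was 5.09 points higher than in GM without dox (exact permutation p = 0.114, adjusted p = 0.208) and 3.003 higher among dox libraries (exact permutation p = 0.457, adjusted p = 0.457). None of these passed the test. The difference in DM against GM without dox was larger than the SD of either group, and the other differences were smaller than the larger SD of their groups. Leaving out 1 library moved the dox difference to between 1.89 (without GM +dox replicate 1) and 6.50 points in GM and between 0.270 (without DM +dox replicate 2) and 4.43 in DM. The differentiation difference then lay between 3.88 and 6.31 points without dox and between 0.893 (without GM +dox replicate 4) and 5.50 with it, and none of these values passed the test. Stratified over both media, the dox difference was 3.35 points (permutation p = 0.121, adjusted p = 0.208), and over both dox arms the differentiation difference was 4.05 points (permutation p = 0.0849, adjusted p = 0.204). The smallest p possible was 0.0286 in the GM dox comparison, 0.1 in that of DM and 0.0571 for each differentiation comparison, so that only the first could pass 0.05 by itself.

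**Figure D2:**
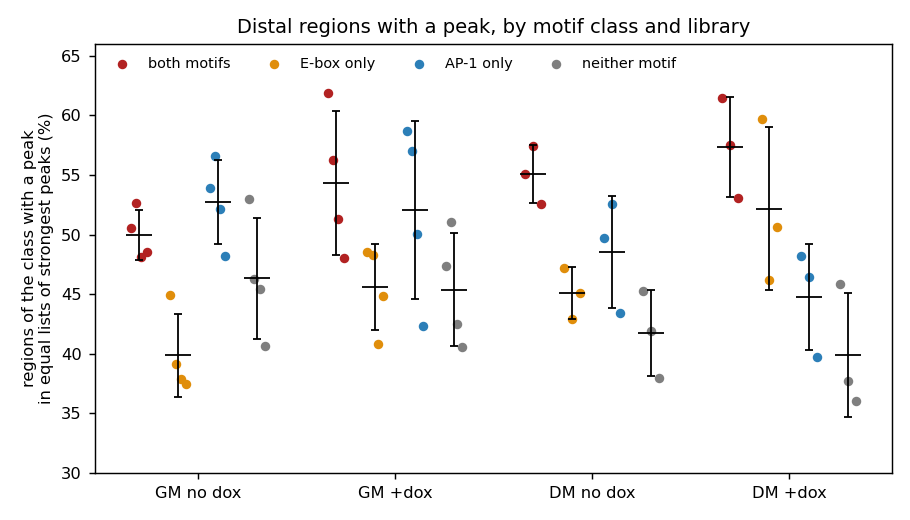
Percent of distal regions of each motif class with a strong peak in equal lists (y axis, %, starting at 30) in each library, by group (x axis), with black bars for mean ± SD. Regions with both motifs have means of 49.96% in GM no dox and 57.4% in DM +dox, and AP-1-only regions 52.7% and 44.8%.

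Set against regions with AP-1 alone, the double-motif regions moved apart with both dox and differentiation. AP-1-only regions had a peak in 52.7% ± 3.51 (SD, n = 4) of cases in GM no dox, 52.0% ± 7.47 (n = 4) in its dox group, 48.5% ± 4.68 (n = 3) in DM no dox and 44.8% ± 4.46 (n = 3) in DM +dox. The difference, double-motif minus AP-1-only, was −3.34, −3.91, −4.08 and 0.306 points in GM no dox, and 3.14, −0.779, 1.23 and 5.66 in GM +dox. In DM it was 5.36, 4.94 and 9.22 without dox, and 13.2, 11.1 and 13.4 with dox. Thus all DM +dox libraries lay above all DM no dox libraries, all DM no dox above all GM no dox, and all DM +dox above all GM +dox, while the GM +dox and GM no dox libraries overlapped. Dox raised this difference by 5.57 points over both media (stratified permutation p = 0.00286, adjusted p = 0.0114), by 5.07 in GM and 6.06 in DM. Differentiation raised it by 9.76 points over both dox arms (permutation p = 0.00163, the smallest that 1225 relabellings allow, adjusted p = 0.0098), by 9.26 without dox and 10.3 with dox.

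Against all other distal regions combined, the pattern was of the same sign. The difference was 2.25 points ± 3.07 (SD, n = 4) in GM no dox, 6.46 ± 2.75 (n = 4) in GM +dox, 10.3 ± 2.09 (n = 3) in DM no dox and 13.8 ± 1.39 (n = 3) in DM +dox. It rose by 3.85 points with dox (stratified permutation p = 0.00714, adjusted p = 0.0214) and by 7.67 with differentiation (permutation p = 0.00163, the smallest possible, adjusted p = 0.0098). Within replicate numbers 1 and 2 the AP-1 contrast was 6.33 points higher with dox and 10.51 with differentiation, and within numbers 3 and 4 by 5.25 and 8.89, each with too few libraries to pass the test. With same-numbered libraries paired, the 2 dox and 2 differentiation differences no longer passed (exact sign-flip test, adjusted p = 0.075 each). With every deposited peak in place of equal lists, the dox calls were lost: the AP-1 contrast was then 1.28 points higher with dox (permutation p = 0.197, adjusted p = 0.338) and that with other distal regions by 0.482 (permutation p = 0.65, adjusted p = 0.686), while the differentiation contrasts kept their calls at 3.98 and 3.31 points (adjusted p = 0.0392 each, permutation test). In those unequal lists the share of the 1418 members with any peak ran from 50.6% to 99.01%, and it was 17.5 points higher with dox over both media (permutation p = 0.0143, adjusted p = 0.0571). With shorter equal lists, of only the strongest peaks, the dox differences kept their calls at smaller values, 3.04 points for the AP-1 contrast (permutation test, adjusted p = 0.00653) and 1.95 for that with other distal regions (permutation test, adjusted p = 0.0343).

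No difference in response from E-box-only regions was detected. E-box-only regions had a peak in 39.9% ± 3.49 (SD, n = 4), 45.6% ± 3.63 (n = 4), 45.1% ± 2.15 (n = 3) and 52.2% ± 6.88 (n = 3) of cases in the 4 groups. Double-motif regions lay above them in 14 of 14 libraries, by 1.72 to 14.5 points. That gap changed by −3.08 points with dox (stratified permutation p = 0.211, adjusted p = 0.317) and by −1.86 with differentiation (permutation p = 0.413, adjusted p = 0.451). Across libraries it ranged from 5.60 to 13.5 in GM no dox, 3.19 to 13.3 in GM +dox, 7.51 to 14.5 in DM no dox and 1.72 to 11.4 in DM +dox, so the groups overlapped.

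**Figure D3:**
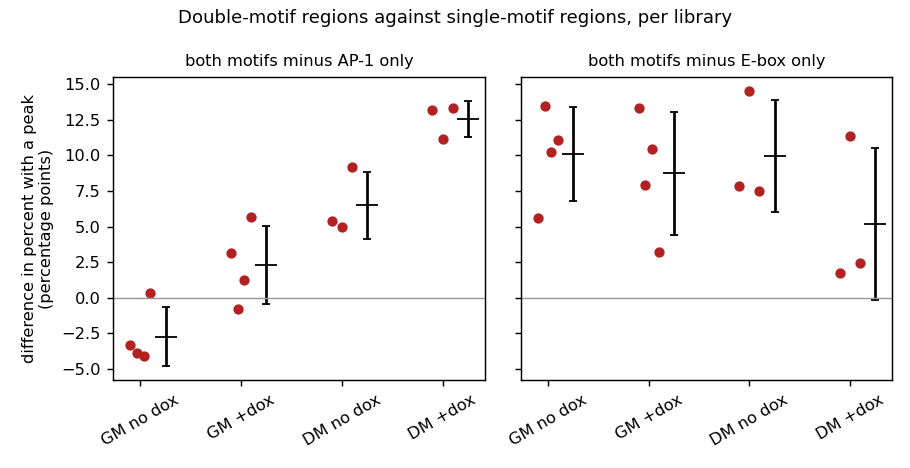
Double-motif minus AP-1-only regions (left) and double-motif minus E-box-only regions (right), as differences in the percent with a peak (y axis, percentage points), one point per library and group (x axis), with bars for mean ± SD. The left panel goes from a mean of −2.76 in GM no dox to 12.6 in DM +dox, while the groups of the right panel overlap.

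Single regions were then ranked. The strength of a region in a library was the percentile of its highest −log10 p among all 26213 regions, from all deposited peaks, and a region was called separated when the 2 groups did not overlap in this percentile. A region without a peak shares the percentile of all such regions in that library, which ran from 1.04 to 22.4 with the length of the list. Any region with a peak ranks above these, which were 44.7% of regions in GM no dox replicate 1 and 2.08% in GM +dox replicate 1. A fold of 7.95 near Gm44822 thus gave percentile 82.9 in the former, and 11.7 gave 26.8 in the latter. The part of list length in the separated sets was not tested. With dox in GM, 60 double-motif regions (4.23%) were separated as higher and 19 (1.34%) as lower, against 2.43% and 2.19% of all distal regions. With dox in DM, 153 (10.8%) were higher and 114 (8.04%) lower, against 7.61% and 11.3%. In differentiation without dox, 133 (9.38%) were higher and 92 (6.49%) lower, against 6.68% and 9.74%. In differentiation with dox, 179 (12.6%) were higher and 116 (8.18%) lower, against 9.16% and 11.5%. In each comparison the members' share exceeded that of all distal regions on the higher side and fell below it on the lower side. E-box-only regions showed 4.49%, 13.5%, 10.1% and 17.5% on the higher side in the same order, and AP-1-only regions 1.73%, 6.46%, 5.36% and 6.72%. On the lower side E-box-only regions showed 1.45%, 6.39%, 5.62% and 6.89%, and AP-1-only regions 2.42%, 11.9%, 11.6% and 12.8%. The low share on the lower side was thus also seen in E-box-only regions. In the 2 comparisons that the replicate numbers pair, the looser rule that every same-numbered pair moves one way called 352 members higher (24.8%, against 18.7% of distal regions) and 310 lower (21.9%, against 26.5%) with dox in DM, and 420 higher (29.6%, against 22%) and 296 lower (20.9%, against 31.4%) in differentiation with dox.

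**Figure D4:**
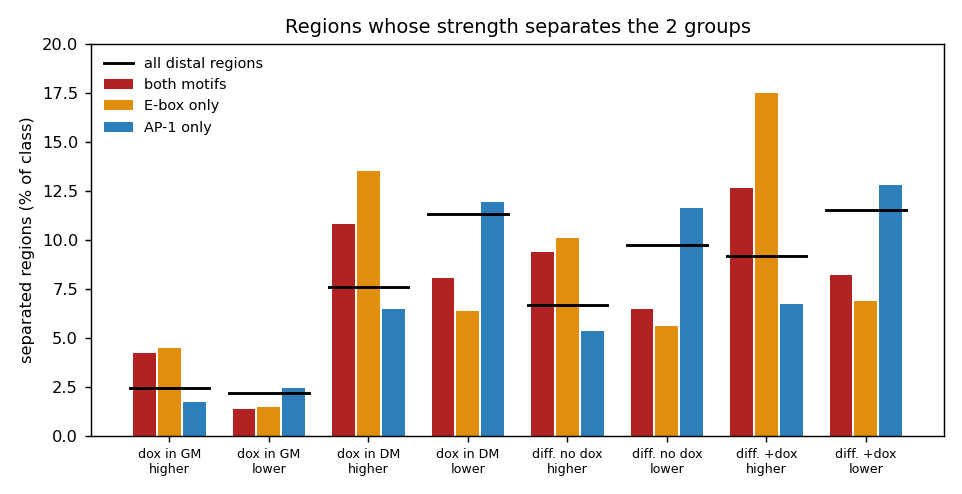
Percent of regions (y axis, starting at 0) of 3 motif classes that were separated as higher or lower in each comparison (x axis), with a black line for all distal regions. The double-motif bars lie above the line for every higher set, for example 12.6% against 9.16% in differentiation with dox, and below it for every lower set.

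The dox comparisons in GM and DM share no library. Of the 60 members higher with dox in GM, 17 (28.3%) were also higher in DM, which is 11.1% of the 153, and 1 was lower there. Over all distal regions the same shares were 27.5% and 8.77%. Of the 19 lower members, 8 were lower in DM (42.1% of the first list and 7.02% of the second, against 34.8% and 6.74% over all distal regions). Likewise 53 members were higher in differentiation in both dox arms (39.8% of the 133 and 29.6% of the 179, against 39.5% and 28.8% over all distal regions) and 33 were lower in both (35.9% and 28.4%, against 41.1% and 34.7%), with none in opposite directions. The members' shares were thus near those of all distal regions, or below them for the lower sets in differentiation.

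The 3 separated members with the largest positive difference in mean percentile with dox in GM lay near Gm17197, Nav1 and 4930542C16Rik, all in introns. The first lay inside Nrap, which encodes an actin-binding anchoring protein of striated muscle, and Nav1 encodes a microtubule-binding protein.
Gm17197 (chr19:56367945-56367994, + strand): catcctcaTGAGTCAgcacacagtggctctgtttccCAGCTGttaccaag
Nav1 (chr1:135590935-135591026, + strand): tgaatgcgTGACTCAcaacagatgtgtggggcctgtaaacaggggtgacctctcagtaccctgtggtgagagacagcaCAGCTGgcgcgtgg
4930542C16Rik (chr14:24607016-24607101, + strand): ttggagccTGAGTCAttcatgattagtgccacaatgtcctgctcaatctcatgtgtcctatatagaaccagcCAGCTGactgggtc
In the Nrap intron, the fold enrichment was 8.47 and 11.6 in 2 of 4 libraries of GM no dox, 16.3, 15.8, 18.03 and 12.1 in GM +dox, 7.74, 6.93 and 17.3 in DM no dox, and 18.9, 13.9 and 16.4 in DM +dox. The mean percentiles of the groups were 18.8, 61.1, 48.7 and 50.05, so that GM no dox stood below the other groups, and the region was also separated as higher in differentiation without dox. The Nav1 region had fold enrichments of 10.7 and 11.1 in 2 of 4 libraries of GM no dox, 14.6, 15.2, 13.3 and 10.99 in GM +dox, 5.59 in 1 of 3 libraries of DM no dox, and 17.1, 10.2 and 9.999 in DM +dox. It was separated as higher with dox in both media, with mean percentiles of 25.5, 65.1, 11.4 and 46.2. The region near 4930542C16Rik had 11.1, 7.10 and 12.5 in 3 of 4 libraries of GM no dox, 19.2, 20.1, 14.4 and 15.1 in GM +dox, 13.5 in 1 of 3 libraries of DM no dox, and 21.3, 12.2 and 14.7 in DM +dox. Its mean percentiles were 32.9, 71.1, 23.1 and 43.3, and among dox libraries it was separated as lower in DM.

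Members separated as lower in percentile with dox in GM lay near AC165259.1, Gm44822 (within an intron of Prmt3) and Arhgap18. Prmt3 is an arginine methyltransferase, and Arhgap18 encodes a GTPase-activating protein.
AC165259.1 (chr17:45799135-45799202, + strand): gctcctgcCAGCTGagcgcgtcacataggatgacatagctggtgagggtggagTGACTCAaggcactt
Gm44822 (chr7:49824694-49824737, + strand): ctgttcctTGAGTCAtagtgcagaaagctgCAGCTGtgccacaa
Arhgap18 (chr10:26836601-26836632, + strand): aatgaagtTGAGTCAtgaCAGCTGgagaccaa
The matches lay 3 bp apart in the Arhgap18 region. Its fold enrichments were 8.14, 14.8, 10.2 and 16.7 in GM no dox, 14.5, 16.02, 12.3 and 9.02 in GM +dox, 10.8, 7.03 and 13.1 in DM no dox, and 15.03, 15.1 and 14.9 in DM +dox. Fold values overlapped between the GM groups, and the mean percentile, which ranks a region within its own library, was 70.6 and 43.7. The Prmt3 region had fold enrichments of 7.95, 13.6, 7.53 and 13.6 in GM no dox, 11.7, 13.3, 11.9 and 7.49 in GM +dox, 7.85, 6.66 and 12.2 in DM no dox, and 9.69, 9.66 and 9.82 in DM +dox. It was separated as lower in percentile with dox in both media, with mean percentiles of 58.4, 30.4, 45.3 and 16.6. Its median fold enrichment was not lower with dox, at 10.8 and 11.8 in GM and 7.85 and 9.69 in DM, so only its rank fell. The intergenic region near AC165259.1 was weak, with fold enrichments of 4.41, 9.46, 5.55 and 7.94 in GM no dox, 7.39, 6.17 and 5.75 in 3 of 4 libraries of GM +dox, 6.39 and 8.15 in 2 of 3 libraries of DM no dox, and 7.70, 9.73 and 8.66 in DM +dox, and was separated in GM alone.

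With dox in DM the largest positive differences were near Lep, Gm5475 and Them6. Lep encodes the hormone leptin, and the region lay in its intron, 1.21 kb from the start site, with the matches 4 bp apart and the second E-box form, caggtg, directly after CAGCTG. The one near Gm5475 lay in an intron of Slc11a2, an iron transporter gene, and that of Them6, with 2 E-boxes, in a UTR.
Lep (chr6:29066700-29066732, + strand): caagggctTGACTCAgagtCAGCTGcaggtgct
The Lep region had fold enrichments of 6.99, 10.3, 5.15 and 4.83 in GM +dox, 7.03 and 5.03 in 2 of 3 libraries of DM no dox, and 19.8, 16.4 and 15.1 in DM +dox, with no peak in any GM no dox library. The mean percentile was 73.1 in DM +dox and at most 17.9 in the other groups. The Slc11a2 intron had 6.37 in 1 of 4 libraries of GM no dox, 10.8, 8.76, 6.44 and 9.20 in GM +dox, 4.80 in 1 of 3 libraries of DM no dox, and 16.4, 11.7 and 12.98 in DM +dox, with mean percentiles of 11.8, 27.9, 10.6 and 59.4. The Them6 region had 4.61 in 1 of 4 libraries of GM no dox, 6.74, 5.67 and 4.59 in 3 of 4 libraries of GM +dox, 6.49 in 1 of 3 libraries of DM no dox, and 10.3, 9.29 and 8.14 in DM +dox, with mean percentiles of 13.7, 20.5, 23.1 and 71.7. In all of them the DM +dox libraries stood above those of DM no dox and of GM +dox.

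Members separated as lower in percentile with dox in DM lay near Mir6541 (in an intron of Wdfy2), Pacs2 and Rdh10. Pacs2 encodes a sorting protein of the secretory pathway, and Rdh10 a retinol dehydrogenase that acts in retinoic acid synthesis.
Pacs2 (chr12:113027690-113027730, + strand): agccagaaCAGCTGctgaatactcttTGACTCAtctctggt
Rdh10 (chr1:16109483-16109517, + strand): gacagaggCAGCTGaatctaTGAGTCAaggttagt
The Rdh10 region had fold enrichments of 8.47, 12.5, 8.29 and 7.09 in GM no dox, 10.4, 10.4, 8.97 and 4.13 in GM +dox, 7.87, 8.08 and 7.35 in DM no dox, and 7.34, 7.05 and 5.58 in DM +dox. Its mean percentiles were 83.3, 60.1, 74.9 and 36.7, so that the difference in rank was larger than that in fold. The Pacs2 region had 7.76 and 5.20 in 2 of 4 libraries of GM no dox, 6.50, 5.27 and 4.71 in 3 of 4 libraries of GM +dox, 7.21, 8.44 and 6.50 in DM no dox, and 6.76, 6.54 and 3.96 in DM +dox, with mean percentiles of 16.1, 8.76, 54.1 and 15.8, and the Wdfy2 intron 14.2, 6.74 and 14.1 in 3 of 4 libraries of GM no dox, 11.5, 6.23 and 8.77 in 3 of 4 libraries of GM +dox, 10.96, 8.88 and 14.2 in DM no dox, and 12.9, 10.7 and 8.75 in DM +dox, with mean percentiles of 41.1, 16.7, 61.9 and 20.6. Both had their highest mean percentile in DM no dox and were also separated as higher in differentiation without dox. For both, fold values of DM no dox overlapped those of DM +dox and of GM no dox. Median fold in DM without and with dox was 10.96 and 10.7 in the Wdfy2 intron, and 7.21 and 6.54 at Pacs2.

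**Figure D5:**
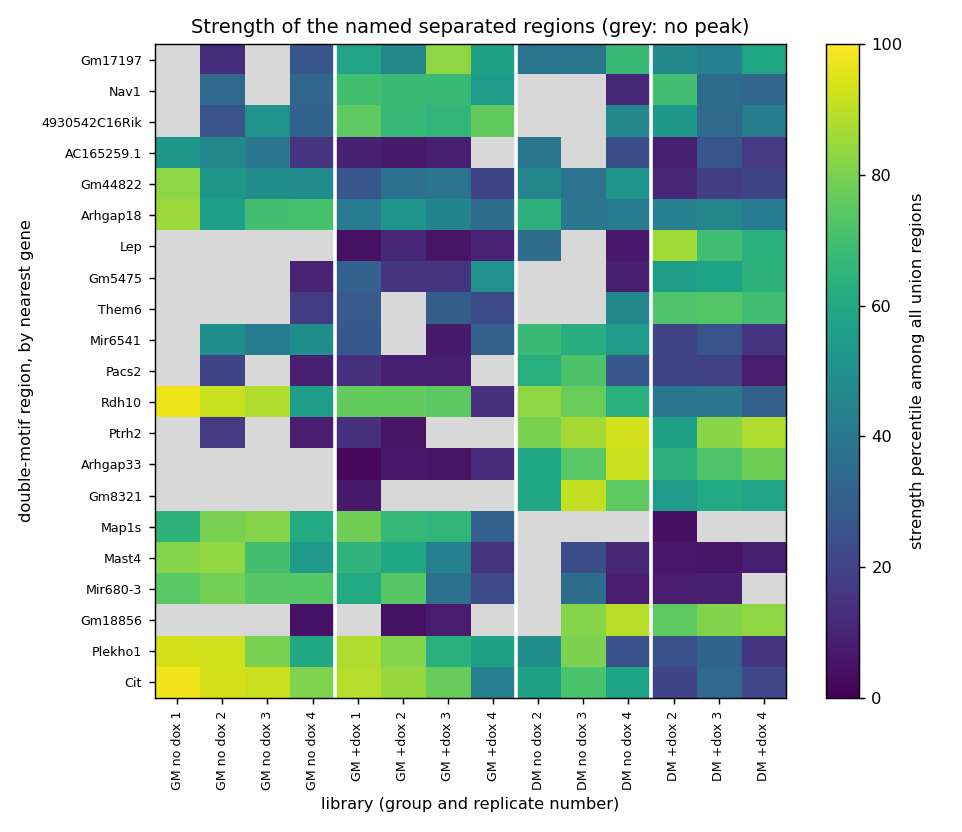
Strength percentile (colour, 0 to 100) of the 21 named separated double-motif regions (rows, by nearest gene) in the 14 libraries (columns), with grey for no deposited peak. Lep, Gm5475 and Them6 are highest in the 3 DM +dox libraries, Ptrh2, Arhgap33 and Gm8321 in all 6 DM libraries, and Map1s in all GM libraries. Mast4 and Mir680-3 are higher in GM than in DM libraries of the same dox arm.

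The largest differences in percentile of single members were between GM and DM. Without dox, the regions in Ptrh2, in Arhgap33 and near Gm8321 led those higher in DM. With dox these were Ptrh2, Gm18856 and Lep. Ptrh2 encodes a mitochondrial peptidyl-tRNA hydrolase, and its region lay in a UTR. The region near Gm18856 lay in an intron of B3galnt2, an enzyme that glycosylates dystroglycan. The closest protein-coding gene to the intergenic region at Gm8321 was Gli2, a hedgehog pathway factor, 72.1 kb away. Arhgap33, which encodes a GTPase-activating protein, held an overlapping motif pair in an intron.
Arhgap33 (chr7:30524699-30524725, + strand): aggatgccCAGCTGACTCAgagctgtt
Gm8321 (chr1:119125667-119125743, + strand): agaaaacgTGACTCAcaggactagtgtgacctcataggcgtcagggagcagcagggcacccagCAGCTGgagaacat
The Arhgap33 region had fold enrichments of 4.36, 8.06, 4.85 and 5.81 in GM +dox, 9.17, 9.59 and 18.6 in DM no dox, and 21.8, 16.1 and 15.6 in DM +dox, with no peak in any GM no dox library. The group means of its percentile were 9.74, 6.60, 75.2 and 71.5. The Ptrh2 region had 9.39 and 7.90 in 2 of 4 libraries of GM no dox, 10.1 and 7.46 in 2 of 4 libraries of GM +dox, 12.5, 12.6 and 19.98 in DM no dox, and 20.6, 21.1 and 20.5 in DM +dox. In percentile, the group means were 14.8, 6.33, 86.4 and 76.002. All DM libraries were above all GM libraries of the same dox arm for both regions, and the dox arms of DM overlapped. The region near Gm8321 had 7.20 in 1 of 4 libraries of GM +dox, 9.05, 14.5 and 18.1 in DM no dox, and 16.2, 15.6 and 15.9 in DM +dox, with no peak in any GM no dox library, and the B3galnt2 intron had 6.32 in 1 of 4 libraries of GM no dox, 6.70 and 6.43 in 2 of 4 libraries of GM +dox, 12.5 and 20.2 in 2 of 3 libraries of DM no dox, and 25.2, 19.1 and 21.4 in DM +dox. The latter was separated with dox and not without, where 1 DM library had no peak.

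The members most below GM in DM lay near Map1s, Mast4 and Mir680-3 without dox, and near Map1s, Plekho1 and Cit with dox. Map1s encodes a microtubule-associated protein, Mast4 a microtubule-associated kinase and Cit the citron kinase of cytokinesis. Map1s and Mir680-3 held overlapping pairs, in the same arrangement as Arhgap33, which was higher in DM. In the windows printed, the overlapping words of Arhgap33 and Map1s read the same and only their flanks differed.
Map1s (chr8:70903634-70903660, + strand): cctttcccCAGCTGACTCAtggcagag
Mir680-3 (chr12:35209579-35209605, + strand): ttgatgtgCAGCTGAGTCAgaggttct
Mast4 (chr13:102942765-102942856, + strand): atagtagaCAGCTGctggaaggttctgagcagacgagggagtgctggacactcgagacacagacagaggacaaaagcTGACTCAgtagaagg
Plekho1 (chr3:95980480-95980519, + strand): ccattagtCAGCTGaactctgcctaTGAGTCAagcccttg
The Map1s region had fold enrichments of 5.46, 14.5, 8.85 and 11.7 in GM no dox, 14.3, 13.2, 10.8 and 7.18 in GM +dox, and 4.80 in 1 of 3 libraries of DM +dox, with no peak in any DM no dox library. It was thus found in all GM libraries and in 1 of the 6 DM libraries. The Mir680-3 region had 6.92, 19.6, 10.9 and 18.7 in GM no dox, 17.05, 20.5, 11.8 and 8.06 in GM +dox, 6.62 and 5.65 in 2 of 3 libraries of DM no dox, and 7.95 and 7.51 in 2 of 3 libraries of DM +dox, with mean percentiles of 75.4, 48.4, 18.6 and 6.25. The intronic Mast4 region had 7.71, 20.1, 9.37 and 14.8 in GM no dox, 18.2, 17.9, 12.3 and 6.52 in GM +dox, 4.63 and 6.998 in 2 of 3 libraries of DM no dox, and 8.53, 5.77 and 6.99 in DM +dox, with mean percentiles of 72.5, 45.97, 15.6 and 6.92. Both were separated as lower in DM in both dox arms. The intergenic region near Plekho1 had 9.36, 22.6, 9.72 and 13.999 in GM no dox, 21.05, 18.5, 13.1 and 11.5 in GM +dox, 8.49, 11.9 and 9.997 in DM no dox, and 13.8, 12.5 and 8.57 in DM +dox, with mean percentiles of 81.6, 72.5, 51.5 and 24.2. The intronic Cit region had 9.88, 16.6, 11.3 and 13.4 in GM no dox, 15.96, 15.1, 13.7 and 8.44 in GM +dox, 8.12, 9.55 and 11.6 in DM no dox, and 10.1, 10.1 and 8.08 in DM +dox. Its mean percentiles were 91.1, 73.4, 62.2 and 25.5, and it was separated as lower with dox in DM and with differentiation in both arms.

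Members were also described by the arrangement of their motifs, as values with no test. Overlapping pairs had a peak in 59.2% ± 5.55 (SD, n = 4) of cases in GM no dox, 57.8% ± 5.996 (n = 4) in GM +dox, 58.0% ± 2.22 (n = 3) in DM no dox and 59.4% ± 1.75 (n = 3) in DM +dox, and the libraries of all groups overlapped. Their separated shares with differentiation were 6.72% higher and 10.9% lower without dox, and 6.72% higher and 11.8% lower with dox. These counts (8 higher in each, and 13 and 14 lower) are small and mostly near the shares of all distal regions given above. Pairs 0 to 19 bp apart (357 regions) went from 49.2% in GM no dox to 59.7% in DM +dox, pairs 20 to 49 bp apart (364) from 47.0% to 56.4% and pairs 50 to 99 bp apart (392) from 48.7% to 58.4%. The 186 pairs at 100 bp or more were at 53.9% and 51.3%. Members with 2 or more E-boxes had a peak in 41.5% ± 3.86, 50.7% ± 7.66, 49.6% ± 1.36 and 61.0% ± 7.07 of cases in the 4 groups. Those with 1 E-box had 51.1% ± 2.099, 54.8% ± 5.87, 55.8% ± 2.93 and 56.9% ± 3.77 (SD, n = 4, 4, 3 and 3 in both). With 2 or more E-boxes, the DM +dox libraries (54.1% to 68.2%) did not overlap those of DM no dox (48.8% to 51.2%). The same share for E-box-only regions with 2 or more E-boxes was not computed. As a whole, E-box-only regions went from 45.1% to 52.2% with dox in DM. Members with 2 or more AP-1 heptamers had a peak more often in each group, in 57.6% ± 2.26, 62.9% ± 5.31, 64.3% ± 7.09 and 65.2% ± 3.56 of cases, against 48.8%, 53.1%, 53.7% and 56.2% with 1. By the motif nearer the summit, the means were 50.2%, 54.6%, 54.6% and 58.1% where it was the E-box and 49.8%, 54.1%, 55.4% and 56.7% where it was AP-1.

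Members were also divided by CAGGTG, the second E-box form, and by the TEAD and RUNX words, again with no test. The 129 members that held it had a peak in 37.6% ± 4.80 (SD, n = 4) of cases in GM no dox, 44.0% ± 4.79 (n = 4) in GM +dox, 46.3% ± 1.95 (n = 3) in DM no dox and 64.1% ± 8.57 (n = 3) in DM +dox. The DM +dox libraries lay between 55.0% and 72.1% and the DM no dox libraries between 44.2% and 48.1%. In the 1289 members without CAGGTG the means were 55.9% ± 2.56 and 56.7% ± 3.72 (SD, n = 3 each) in DM without and with dox. In differentiation with dox, 29.5% of members with CAGGTG were separated as higher and 10.9% of those without, against 9.16% of all distal regions. The separated share of distal regions with CAGGTG was not computed. From GM +dox to DM +dox, E-box-only regions with CAGGTG went from 41.7% to 63.2%. All distal regions with it went from 39.6% to 52.0%, so the rise was not particular to the members. Outside the members, E-box-only regions with CAGGTG went from 43.8% to 63.2% with dox in DM, and AP-1-only regions with it from 44.0% to 50.8%. All distal regions with it, members included, went from 41.3% to 52.0%. Members with a TEAD word went from 52.7% ± 5.09 to 59.0% ± 10.8 (SD, n = 3 each) with dox in DM, and the libraries overlapped. Those without it went from 55.6% to 56.97%. E-box-only regions with a TEAD word went from 46.8% to 55.5% with dox in DM, so a rise was not particular to the members. AP-1-only regions with it went from 48.0% to 46.1%, and all distal regions with it from 45.6% to 47.2%. With a RUNX word the means were 58.5% and 60.8%, and without it 53.8% and 56.2%.

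Few members were nearest to genes of the lists drawn up for muscle, adhesion, AP-1 and matrix. Of 34 distal regions nearest to the 36 myogenic genes, 4 (11.8%) were double-motif regions, near Tead4, Mef2a, Acta1 and Pax7. The Tead4 region, in an intron of this TEAD factor gene, had fold enrichments of 6.49, 10.7 and 16.2 in 3 of 4 libraries of GM no dox, 18.5, 18.7, 11.8 and 13.4 in GM +dox, 8.98, 7.82 and 13.5 in DM no dox, and 25.01, 16.9 and 16.7 in DM +dox. Its mean percentile was 47.5 without and 68.7 with dox in DM, and it was separated there. The intergenic region near Mef2a, a muscle transcription factor gene, had 10.2, 5.02 and 10.1 in 3 of 4 libraries of GM no dox, 13.2, 16.6, 10.4 and 11.1 in GM +dox, 8.39, 5.30 and 11.5 in DM no dox, and 18.1, 15.1 and 12.9 in DM +dox, and was separated as higher with dox in GM. The one near Acta1, skeletal alpha-actin, had 14.99 and 15.6 in 2 of 4 libraries of GM no dox, 13.6, 12.6, 12.95 and 7.76 in GM +dox, 9.43 in 1 of 3 libraries of DM no dox, and 16.6, 11.3 and 14.003 in DM +dox, and was separated as higher with dox in DM. The overlapping pair in an intron of Pax7, a satellite cell factor, had mean percentiles of 32.8, 26.6, 30.4 and 34.1 and was separated in none of the comparisons.

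Of 63 distal regions nearest to the 22 adhesion and junction genes, 5 (7.94%) were members, near Tln2, Itgb5, Itga7, Cdh15 and Ncam1. The region 2.19 kb from the start site of Itga7, the laminin-binding integrin chain of muscle, had fold enrichments of 7.41, 4.11 and 5.23 in 3 of 4 libraries of GM no dox, 9.64, 10.3, 6.95 and 7.24 in GM +dox, 8.46, 5.89 and 8.17 in DM no dox, and 14.05, 13.3 and 10.1 in DM +dox. Its mean percentiles were 25.1, 49.6, 56.96 and 79.4, and it was separated as higher in differentiation without dox. The intronic Itgb5 region was separated with dox in DM (77.4 and 93.3), and those near Tln2 (talin), Cdh15 (M-cadherin) and Ncam1 in none of the comparisons. The Itgb5 fold enrichments were 9.29, 17.9, 10.96 and 13.5 in GM no dox, 16.7, 18.1, 13.7 and 11.9 in GM +dox, 12.9, 10.4 and 14.05 in DM no dox, and 21.4, 17.5 and 18.6 in DM +dox. For the 12 AP-1 genes, 1 of 15 distal regions (6.67%) was a member, 2.54 kb from the start of Junb, an AP-1 subunit gene, with 2 E-boxes and 1 AP-1 heptamer. Its fold enrichments were low, at 3.75 and 3.56 in 2 of 4 libraries of GM no dox, 4.91, 3.85, 4.45 and 3.82 in GM +dox, 2.77 in 1 of 3 libraries of DM no dox, and 3.29, 3.19 and 3.07 in DM +dox. The mean percentiles were 43.7, 80.3, 17.2 and 37.9. It was separated as higher with dox in DM and as lower in differentiation with dox. For the 21 matrix and YAP or TGF-beta response genes, 1 of 38 (2.63%) was a member, near the collagen gene Col5a1, with mean percentiles of 74.3, 62.04, 66.5 and 62.1, and it was separated in none of the comparisons. Across all distal regions the members' share was 8.93%.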

How the data were processed

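ATAC-seq was performed on 16 libraries, and 14 were used here. The members and gene lists were chosen with earlier results of these data known. Per the study's methods the authors ran the nf-core/atacseq pipeline on mm10 without blacklisted regions, and MACS2 called narrow peaks library by library. The deposited lists give fold enrichment (a ratio) and −log10 p and q for each peak, so tests for counts do not apply. The reference was GRCm38.p6, and 0 peaks ran past a chromosome end.

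Each list was reduced to its strongest peaks by −log10 p, to the length of the shortest kept list, and these were merged into union regions (touching peaks included). The summit was that of the member peak with the highest −log10 p. Background coverage was solved from the deposited fold and −log10 p of peaks with −log10 p under 30. Depth limits weak peaks, and the list length set in equal lists removes the number of peaks as a difference between libraries. Python 3.11.15, numpy 2.4.6, scipy 1.17.1, pandas 2.3.3, pysam 0.24.0 and samtools 1.23.1 were used.

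Percentages of regions were compared with two-sided exact permutation tests over libraries. Pooled tests permuted dox within medium (1400 relabellings) or medium within dox arm (1225), and 12 p-values were adjusted by the Benjamini-Hochberg method. The tests were checked on simulated data. Regions were named by rule: up to 3 separated members per comparison and direction, the 5 strongest, the 6 with the closest motifs, and up to 4 per gene list. Sequences of at most 100 bases, 8 flanking bases included, were read from that reference and shown for regions outside annotated UTRs that were named by their difference, strength or closest motifs, not by gene list. Same-numbered libraries were checked for pairing by the correlation of their deviations from group means over distal regions. It was above 0.1 in every pair for dox in DM (0.241 to 0.459) and differentiation with dox (0.258 to 0.476), and not for dox in GM (lowest 0.0856) or differentiation without dox (lowest 0.0788). Alternatives varied the ranking column, list length, motif window, summit distance, libraries and pairing.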

Additional observations from a re-analysis of the deposited data

Results flagged for a closer look

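In the contrast of double-motif with AP-1-only regions, GM no dox replicate 4 stood far from the other libraries of its group, at 0.306 points against −3.34, −3.91 and −4.08. It was the only library set apart by Dixon's criterion among the 8 sets of 4 GM libraries examined, and chance sets apart about 1 set in 20. Without any single library, this one included, the dox difference in that contrast lay between 5.01 and 6.24 points and the differentiation difference between 9.08 and 10.3.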

How the results depend on the processing

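Of 354 values recomputed under the alternatives, 299 kept direction and call, or stayed within 1.5 times the count. The 4 contrasts that passed the test, double-motif against other distal or AP-1-only regions with dox and with differentiation, kept their calls in 56 of 56 values that left out 1 library. With motifs within 50 bp, the contrast with other distal regions for dox was 5.01 (adjusted permutation p = 0.0643). With all deposited peaks the dox contrasts were 0.482 and 1.28. With the replicate block (mean difference of same-numbered libraries, exact sign-flip test), the contrasts with other distal regions were 3.85 for dox and 7.64 for differentiation, and those with AP-1-only regions 5.57 and 9.80, each with adjusted p = 0.075. The smallest p of that test is 0.0156 for dox and 0.0312 for differentiation, and it changed no other call among the 12. Within replicate numbers 1 and 2 the same 4 values were 5.20, 6.33, 6.33 and 10.51, and within numbers 3 and 4 they were 2.81, 8.12, 5.25 and 8.89, with too few libraries to pass the test. For differentiation with dox, the percent of members with a peak changed sign with shorter equal lists (−0.453) and with motifs within 200 bp (−0.143), neither passing the test, and the E-box-only contrast for differentiation was 0.211 within numbers 3 and 4. Over both dox arms, the differentiation difference in the percent of members with a peak ranged from 2.99 to 5.30 without 1 library, and passed the test without GM +dox replicate 1 (5.30, adjusted permutation p = 0.0411).

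Counts of separated members moved more. Leaving out 1 library gave 79 to 115 higher and 25 to 54 lower members for dox in GM, 206 to 266 and 148 to 241 for dox in DM, 154 to 232 and 115 to 168 for differentiation without dox, and 201 to 257 and 125 to 238 with dox, and fewer libraries make separation easier. In 28 of 28 such values the members' share exceeded that of all distal regions on the higher side, and in 28 of 28 it was below it on the lower side. For dox in GM, for example, 1.76% to 3.81% of members were lower, against 3.06% to 5.93% of distal regions. The paired rule of the replicate block gave 218 and 108, 352 and 310, 341 and 250, and 420 and 296, in the same order. For dox in GM these were 15.4% and 7.62% of members against 10.3% and 10.9% of distal regions, and for differentiation without dox 24.0% and 17.6% against 18.3% and 26.0%. Adding DM +dox replicate 1 gave 57 lower members for dox in DM and 49 for differentiation with dox. Setting regions without a peak to percentile 0, an alternative chosen after seeing the data, kept all 8 counts within 1.5 times, with 88 higher and 15 lower for dox in GM.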
